A study of Sus scrofa with 8 samples.

Results

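FOXP3, CTLA4 and TGFB1 were followed in whole blood of sows 14 days after insemination, 4 of them pregnant and 4 not pregnant, all female pigs (Sus scrofa) of the fifth parity. The 3 genes were taken as every probe on the porcine Agilent array whose RefSeq transcript accession belongs to one of them, which gave 6 of 43388 probes: 3 for FOXP3, 1 for CTLA4 and 2 for TGFB1. Each sow was measured on 1 single-colour array, so differences between animals and between arrays cannot be told apart. By the study's design the sows form 3 pairs of half-sibs and 1 pair without kinship, and the labels do not say which sows belong together. Blood was lysed whole, so the RNA is that of all blood cells together, and fewer cells of a type and less RNA per cell cannot be told apart in it.

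Regulatory T cells, best known from mouse and human, restrain other immune cells. FOXP3 is the transcription factor that defines them. CTLA4 is a surface receptor that they carry at all times and that other T cells gain on activation; it competes with the activating receptor CD28 for CD80 and CD86 on antigen-presenting cells. TGFB1 is a secreted cytokine, held latent until it is activated, that can induce FOXP3 in naive T cells through SMAD proteins. It is made by many blood cells, platelets among them, and so is no marker of regulatory T cells. These cells are studied in pregnancy because the maternal immune system meets paternal antigens there.

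The comparison asks whether blood of pregnant sows differs from that of non-pregnant sows around the time of attachment of the conceptus. None of the 3 genes passed the test. CTLA4 had the lowest ratio, at 0.706 times its non-pregnant level. After scaling of the arrays every pregnant sow lay below every non-pregnant sow, by a margin of 0.0071 on the log2 scale. Its unscaled signals overlapped. TGFB1 was at 0.855 and 0.840 times its non-pregnant level at its 2 probes, with overlapping groups. FOXP3 was at 1.01 times its non-pregnant level at the 1 probe that was well above background, and its sign turned without pregnant replicate 2 or without non-pregnant replicate 1.

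A probe entered the test if the 4 arrays of either group all had it well above background, which 26476 did. Over these, limma called 0 higher and 0 lower (adjusted p under 0.05; 0% in each direction), with 604 probes at an unadjusted p under 0.05 (2.28%). Arrays correlated at r between 0.870 and 0.984 over these probes. Pregnant replicate 2 was the dimmest array: its 75th percentile signal was 142, against 176 to 297 elsewhere, and leaving it out raised the lowest r to 0.946. Values without it stand beside many of the results that it moved. Levels below are log2 of the processed signal minus log2 of the 75th percentile of the same array, so a level of 0 is a signal at that percentile. Levels of different probes are not compared, since brightness depends on the probe.

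CTLA4 was measured by 1 probe (A_72_P302909), well above background on all 8 arrays. Its level was -2.69, -2.78, -2.53 and -2.34 in pregnant replicates 1 to 4, against -2.33, -1.83, -2.06 and -2.11 in non-pregnant replicates 1 to 4. The groups did not overlap, which was also the case for 419 of the 26476 probes (1.58%, and 0.687% with pregnant lower), and the gap between pregnant replicate 4 and non-pregnant replicate 1 was the margin given above. The means were -2.58 ± 0.19 in pregnant and -2.08 ± 0.21 in non-pregnant sows (SD, n = 4 each), a log2 fold change of -0.50 (95% interval -1.02 to 0.015, limma unadjusted p = 0.0556, adjusted p = 1.00). An exact two-sided permutation test of this single value gave p = 0.0286, the smallest that 4 against 4 arrays allow. The interval holds values from 0.493 to 1.01 times the non-pregnant level. Before scaling the groups overlapped. The processed signal was 46.2, 20.8, 40.3 and 44.3 intensity units in pregnant replicates 1 to 4, and 46.2, 69.9, 51.6 and 40.6 in non-pregnant replicates 1 to 4.

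The direction at CTLA4 was the same on both slides. The arrays lay on 2 slides, each with 2 arrays of each group. The log2 fold change was -0.42 within slide 1, where the pregnant sows are replicates 1 and 3, and -0.59 within slide 2, where they are replicates 2 and 4. Without pregnant replicate 2 it was -0.44, and it ran from -0.59 to -0.42 as each array was omitted in turn. The groups also stayed apart when arrays were scaled on their median, quantile normalized or taken from the deposited log2 table. They overlapped with normexp background correction (log2 fold change -0.72, exact permutation p = 0.114). They also overlapped when the local background was subtracted and 50 added to the signal, which shrinks differences of dim probes (log2 fold change -0.18, exact permutation p = 0.0857).

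**Figure D1:**
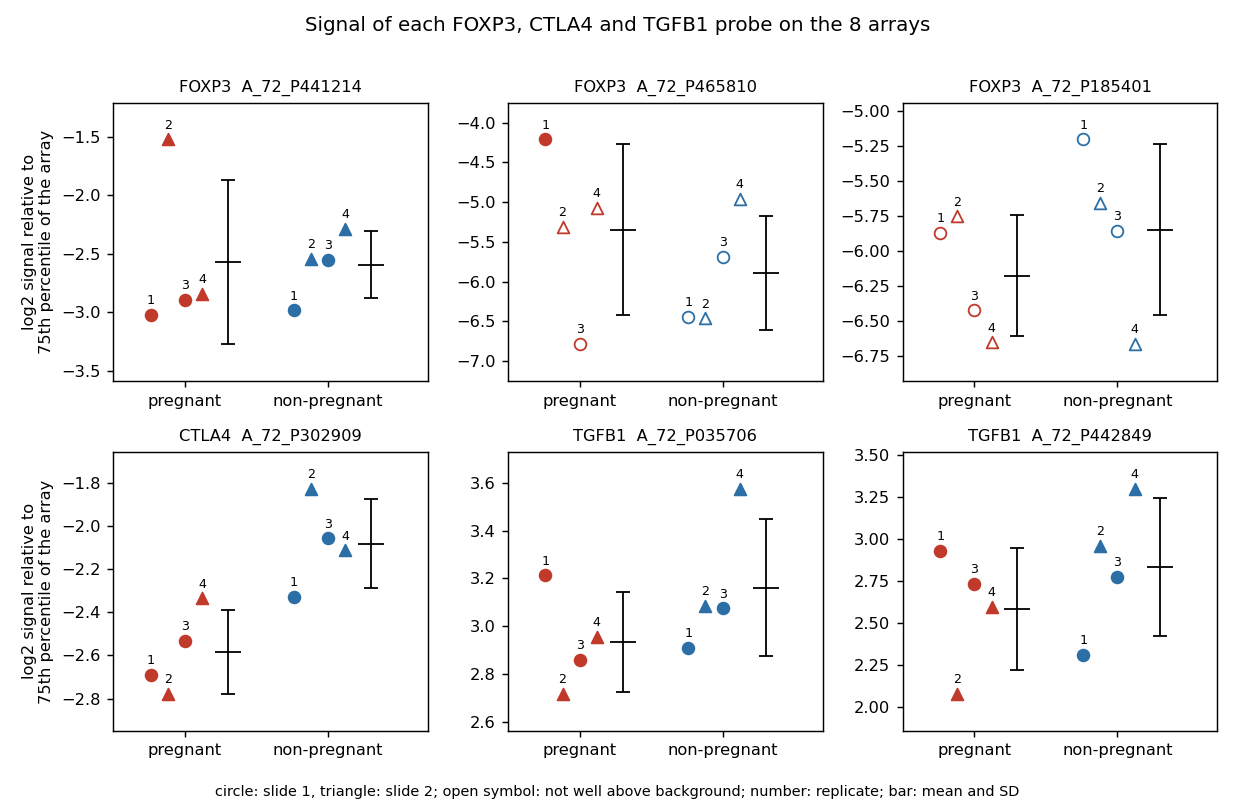
Level of each of the 6 probes (log2 signal relative to the array's 75th percentile) on the 8 arrays, pregnant in red and non-pregnant in blue, with circles for slide 1, triangles for slide 2 and open symbols where the probe was not well above background. Bars give mean and SD over 4 arrays. The CTLA4 groups do not overlap, the first FOXP3 probe is highest on pregnant replicate 2 (-1.53), and the other FOXP3 probes are open on all arrays but 1.

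FOXP3 had 3 probes to the same transcript accession, and they disagreed. Probe A_72_P441214 was well above background on all 8 arrays. Its level was -3.03, -1.53, -2.89 and -2.84 in pregnant replicates 1 to 4, against -2.98, -2.55, -2.55 and -2.29 in non-pregnant replicates 1 to 4. The groups overlapped, and pregnant replicate 2 was the highest of all 8 arrays while the other 3 pregnant arrays were among the lowest 4. The means were -2.57 ± 0.70 in pregnant and -2.59 ± 0.29 in non-pregnant sows (SD, n = 4 each), a log2 fold change of 0.021 (95% interval -0.78 to 0.82, limma adjusted p = 1.00).

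With pregnant replicate 2 left out, FOXP3 had a log2 fold change of -0.33 (limma adjusted p = 1.00). Without non-pregnant replicate 1 it was -0.11. Within slide 1, which does not hold pregnant replicate 2, it was -0.19, and within slide 2 it was 0.23. The interval over 8 arrays reaches from 0.582 to 1.77 times the non-pregnant level, so ratios within those bounds are not excluded.

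The other FOXP3 probes were close to background. Probe A_72_P465810 was well above background on 1 pregnant array, replicate 1, at a level of -4.21, and on 0 non-pregnant arrays. On the other 7 arrays it lay between -6.79 and -4.96. Probe A_72_P185401 was well above background on 0 of 4 arrays of each group and lay between -6.66 and -5.75 in pregnant and between -6.67 and -5.20 in non-pregnant sows. No fold change is given for either (limma adjusted p = 1.00 each, in a fit over all 43388 probes). Across the 8 arrays their levels correlated with those of the first probe at r = 0.134 and 0.0051, which is a description of signals near background. Which of the probes follows the FOXP3 transcript best was not tested.

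The first FOXP3 probe also varied little before scaling. Its processed signal ran from 29.3 to 49.5 intensity units over the 8 arrays, while the 75th percentile of the arrays ran from 142 to 297. After scaling, its level was therefore high on the dim arrays: across 8 arrays it correlated with log2 of the 75th percentile at r = -0.898 and rho = -0.738. Since that percentile is subtracted to give the level, this relation is in part built in for a probe of nearly flat signal, and no p is given. The value of r was -0.742 without pregnant replicate 2 and -0.661 without the 2 arrays farthest from the median brightness (pregnant 2 and pregnant 1). The same correlation was 0.153 for CTLA4 and 0.147 for TGFB1. These values also moved with the arrays used: they were -0.479 and -0.424 without pregnant replicate 2. Without the same 2 arrays they were -0.040 for CTLA4 and -0.857 for TGFB1. On the unscaled signals r was -0.490 for FOXP3 (exact permutation p = 0.213, adjusted 0.213; rho -0.190, p = 0.665), 0.757 for CTLA4 (p = 0.0429, adjusted 0.0643; rho 0.548, p = 0.171) and 0.813 for TGFB1 (p = 0.0213, adjusted 0.0638; rho 0.548, p = 0.171). Without the same 2 arrays these values of r were -0.010, 0.548 and -0.350. These relations were added after the data were seen, and the p-values are adjusted over the 3 unscaled ones. How much of the FOXP3 pattern comes from array brightness was not tested.

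TGFB1 was measured by 2 probes, both well above background on all 8 arrays. At A_72_P035706 the level was 3.21, 2.72, 2.86 and 2.95 in pregnant replicates 1 to 4, against 2.91, 3.09, 3.07 and 3.57 in non-pregnant replicates 1 to 4. Pregnant replicate 2 was lowest and non-pregnant replicate 4 highest, and the groups overlapped. The means were 2.94 ± 0.21 in pregnant and 3.16 ± 0.29 in non-pregnant sows (SD, n = 4 each), a log2 fold change of -0.23 (95% interval -0.78 to 0.32, limma adjusted p = 1.00).

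At the second TGFB1 probe, A_72_P442849, the level was 2.93, 2.08, 2.73 and 2.60 in pregnant replicates 1 to 4, against 2.31, 2.96, 2.78 and 3.30 in non-pregnant replicates 1 to 4. The same arrays were lowest and highest as at the first probe. The means were 2.59 ± 0.36 in pregnant and 2.84 ± 0.41 in non-pregnant sows (SD, n = 4 each), a log2 fold change of -0.25 (95% interval -0.91 to 0.41, limma adjusted p = 1.00). The levels of the probes correlated at r = 0.892 over the 8 arrays. Slides differed in direction: the log2 fold changes of the first and second probe were 0.044 and 0.29 within slide 1, against -0.49 and -0.79 within slide 2. This difference between slides was not tested. Without non-pregnant replicate 4 they were -0.087 and -0.097, and without pregnant replicate 2 they were -0.15 and -0.082.

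**Figure D2:**
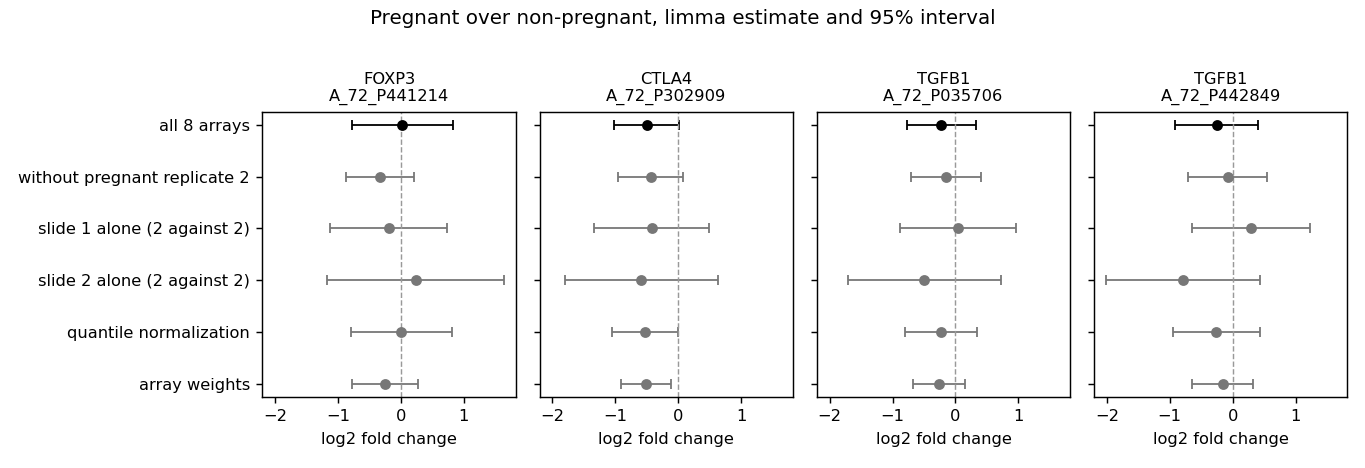
Log2 fold change, pregnant over non-pregnant, with its 95% interval from limma, for the 4 probes well above background in at least 1 group (columns) over all 8 arrays (black) and under 5 other settings (grey). The CTLA4 estimate is below 0 in every row, that of FOXP3 turns to -0.33 without pregnant replicate 2, and both TGFB1 probes are above 0 on slide 1 alone.

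FOXP3 and CTLA4 are genes of T cells, and most T cell markers had the same sign as CTLA4. Of 18 markers listed, 9 had a probe, all 9 of them well above background. None of the 9 passed the test, 8 had a log2 fold change below 0, and the median was -0.28, beside -0.036 over all 1817 genes with a measured probe. CD3D, a chain of the T cell receptor complex, was at 0.660 times its non-pregnant level, and the signalling adaptor SH2D1A at 0.727 (limma adjusted p = 1.00 each). The log2 fold change of CD3D was -0.60, -0.40 without pregnant replicate 2, and -0.22 at its other probe. The marker mean ran from 0.89 to 1.55 on pregnant arrays and from 1.38 to 1.73 on non-pregnant arrays, and was lowest on pregnant replicate 2. The group difference of that mean was -0.28 (exact permutation p = 0.114), and -0.14 without pregnant replicate 2.

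Taken as a difference from the T cell marker mean of the same array, CTLA4 was -3.89 ± 0.25 in the pregnant group and -3.67 ± 0.28 in the non-pregnant group (SD, n = 4 each). The difference between groups was -0.22, against -0.50 for CTLA4 alone, and the groups overlapped (exact permutation p = 0.314, smallest possible 0.0286). The groups of CTLA4 alone were only 0.0071 apart, a gap that subtracting any varying mean can close. How much of the CTLA4 difference goes with T cell number was not tested. The difference of -0.22 was -0.10 without pregnant replicate 1, -0.14 without non-pregnant replicate 3 and -0.35 without non-pregnant replicate 1. Pregnant replicate 2 held the highest pregnant value (-3.66, against -4.24, -3.86 and -3.81 in replicates 1, 3 and 4). Without it the difference was thus wider, while that of CTLA4 alone narrowed from -0.50 to -0.44. For FOXP3 the difference relative to the T cell markers was 0.30 (exact permutation p = 0.771), and it was -0.19 without pregnant replicate 2. For TGFB1 it was 0.059 (exact permutation p = 0.771), and -0.0095 without pregnant replicate 2.

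**Figure D3:**
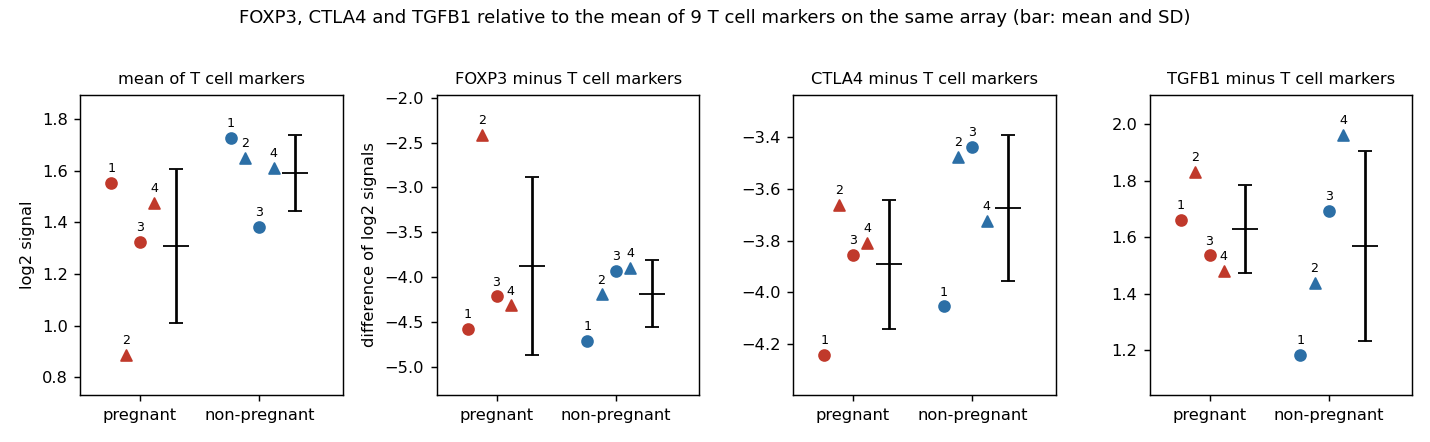
Mean log2 level of 9 T cell markers on each array (left), and log2 level of FOXP3, CTLA4 and TGFB1 minus that mean (other panels), pregnant in red and non-pregnant in blue, with mean and SD over 4 arrays. CTLA4 groups, only 0.0071 apart when CTLA4 is taken alone, overlap once set against the T cell markers (-0.22 between means). FOXP3 is highest on pregnant replicate 2. The part of T cell number in these values was not tested.

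No marker of another blood cell type passed the test either, and the part of those cells in the values above was not tested. All 10 measured markers of monocytes and macrophages had a positive log2 fold change (median 0.27), beside 44.1% of all 1817 genes. Their mean ran from 2.14 to 2.41 on pregnant arrays and from 1.60 to 2.12 on non-pregnant arrays, without overlap (difference 0.32, exact permutation p = 0.0286, the smallest possible and not adjusted over the 7 marker lists). All 9 measured markers of cytotoxic and NK cells had a negative one (median -0.53), with means from 0.73 to 1.18 on pregnant and from 1.00 to 1.64 on non-pregnant arrays. Of 7 measured platelet markers 6 were negative (median -0.27), with means from 3.45 to 3.82 on pregnant and from 3.67 to 4.37 on non-pregnant arrays. Of 9 measured neutrophil markers 7 were positive (median 0.20). Their means ran from 2.43 to 3.70 on pregnant and from 2.36 to 2.92 on non-pregnant arrays, and means of the 2 measured red cell genes from 0.065 to 3.09 on pregnant and from 0.95 to 2.15 on non-pregnant arrays; in both, pregnant replicate 2 held the highest value. Leaving that array out, the group difference was -0.037 in place of 0.23 for the neutrophil mean and -0.83 in place of -0.22 for the red cell mean. All 3 measured B cell markers were negative (median -0.22), with means from 0.97 to 1.40 on pregnant and from 1.05 to 1.75 on non-pregnant arrays.

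Of other genes tied to regulatory T cells none passed the test, nor had any an unadjusted p under 0.05 (limma). Of 25 genes listed, 8 had a probe and 6 were measured well above background. All 6 had a log2 fold change below 0 (median -0.30, and -0.20 without pregnant replicate 2), beside -0.036 over all genes, where 55.9% were negative. The list, which includes IL7R, does not sort genes by whether regulatory T cells hold more or less of them. The shared sign is thus no measure of these cells. IL2RA, the high-affinity interleukin 2 receptor chain that regulatory T cells carry, was on the array but not well above background on all arrays of either group. ICOS, a costimulatory receptor that T cells gain on activation, had a ratio of 0.731 to its non-pregnant level, GATA3, a T cell transcription factor, at 0.751, and the interleukin 7 receptor IL7R at 0.879 (limma adjusted p = 1.00 each). Second probes of these genes had log2 fold changes of -0.39, -0.31 and -0.047. Without pregnant replicate 2 the log2 fold changes at the first probes were -0.27 for ICOS (-0.45 with it), -0.21 for GATA3 (-0.41) and -0.048 for IL7R (-0.19). GATA3 was also at -0.21 without non-pregnant replicate 4, and IL7R at -0.070 without non-pregnant replicate 1.

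ENTPD1 (CD39), an enzyme that degrades extracellular ATP, had the lowest ratio of the list, 0.445. Its level was -1.03, -3.57, -2.74 and -1.22 in pregnant replicates 1 to 4, against -0.55, -0.86, -1.19 and -1.29 in non-pregnant replicates 1 to 4. Pregnant replicates 2 and 3 were low and the other pregnant sows lay within the non-pregnant range, so the groups overlapped (limma unadjusted p = 0.0547, adjusted p = 1.00). The log2 fold change was -1.17, and -0.69 without pregnant replicate 2. Its other probes stood at -1.01 and 0.14 and thus differed in sign.

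Genes that induce FOXP3 or act beside it were spread on both sides. Of 28 listed, 14 had a probe and 12 were measured, of which 5 had a positive and 7 a negative log2 fold change (median -0.10, and -0.027 without pregnant replicate 2). SMAD3, which carries the TGF-beta signal to the nucleus, was the only one of the 12 whose groups did not overlap, beside 1.49% of the 1817 genes (0.771% with pregnant lower). Its level was 0.85, -0.18, 0.48 and 0.55 in pregnant replicates 1 to 4, against 0.93, 1.28, 1.03 and 1.20 in non-pregnant replicates 1 to 4. It was at 0.624 times its non-pregnant level (log2 fold change -0.68, 95% interval -1.29 to -0.073, limma unadjusted p = 0.0317, adjusted p = 1.00). Without pregnant replicate 2 the log2 fold change was -0.48, and its second, dimmer probe stood at -1.01. At that probe the groups overlapped, though not when scaled on the median, quantile normalized or taken from the deposited table. Non-pregnant replicate 4 was at -1.90 there, against -3.04, -3.57 and -3.15 in non-pregnant replicates 1 to 3. With the local background subtracted the second probe stood at -0.27. The groups of the first probe overlapped when arrays were scaled on their median (log2 fold change -0.70), when the local background was subtracted (-0.49) and with normexp background correction (-0.14). Slides gave -0.31 (slide 1) and -1.05 (slide 2). NFATC2, an effector of T cell receptor signalling, was at 0.775 times its non-pregnant level and the transcription factor ETS1 at 0.827 (limma adjusted p = 1.00 each). Their log2 fold changes were -0.37 and -0.27. NFATC2 stood at -0.15 without non-pregnant replicate 4 and at -0.18 without pregnant replicate 4, and ETS1 at -0.18 without pregnant replicate 2. The orphan receptor NR4A3 was well above background on 1 of 4 pregnant and 4 of 4 non-pregnant arrays, so it entered the test through the non-pregnant group alone. Its log2 fold change was -0.57, and -0.064 when the local background was subtracted (limma adjusted p = 1.00).

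Genes of the CD28 and B7 family lay on both sides of 0. Of 16 genes of the CD28 and B7 family and its adaptors, 5 were measured, 2 with a positive and 3 with a negative log2 fold change (median -0.034, from -0.26 to 0.15 as each array was omitted). CD80 and CD86, the ligands that CTLA4 shares with CD28, were at 0.884 and 1.06 times their non-pregnant level, and CD274 (PD-L1) at 1.23 (limma adjusted p = 1.00 each). The log2 fold change of CD80 was -0.18, and 0.015 without pregnant replicate 2. As each array was omitted in turn, the difference of CD86 (0.086 on the log2 scale) ran from -0.068 to 0.33 and that of CD274 (0.29) from -0.59 to 0.81. ICOS belongs to this list and to that of regulatory T cells, and CD86 is also a monocyte and macrophage marker.

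In the TGF-beta pathway 11 of 33 listed genes were measured, 4 with a positive and 7 with a negative log2 fold change (median -0.097, and -0.16 without pregnant replicate 2). SMAD3, described above, belongs to this list and to that of FOXP3 induction, so the lists are not independent. Its unadjusted p was the smallest of the 11 (limma, 0.0317). The receptor chain TGFBR1 stood at 0.010 and the common mediator SMAD4 at -0.11 on the log2 scale. ENG (endoglin), an accessory receptor for TGF-beta, had a mean level 1.95 times the non-pregnant one (95% interval of the log2 fold change 0.033 to 1.90, limma unadjusted p = 0.0438, adjusted p = 1.00). Its level was 0.16, -0.11, -0.090 and -0.20 in pregnant replicates 1 to 4, against -1.90, -1.73, -0.34 and -0.12 in non-pregnant replicates 1 to 4. Non-pregnant replicates 1 and 2 were low, and non-pregnant replicate 4 lay within the pregnant range. With normexp background correction the log2 fold change was 0.22, in place of 0.97. ITGAV, an integrin chain that takes part in activating latent TGF-beta, was at 0.801 times its non-pregnant level, and the gelatinase MMP9 at 0.469, which counts among the neutrophil markers too (limma adjusted p = 1.00 each). Other probes of ITGAV had log2 fold changes of -0.75 to -0.14 and that of MMP9 -1.17. At its first probe ITGAV stood at -0.32, and at -0.16 without pregnant replicate 2. MMP9 stood at -1.09, at -0.47 without pregnant replicate 3, at -0.58 without non-pregnant replicate 4 and at -0.26 with normexp background correction.

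**Figure D4:**
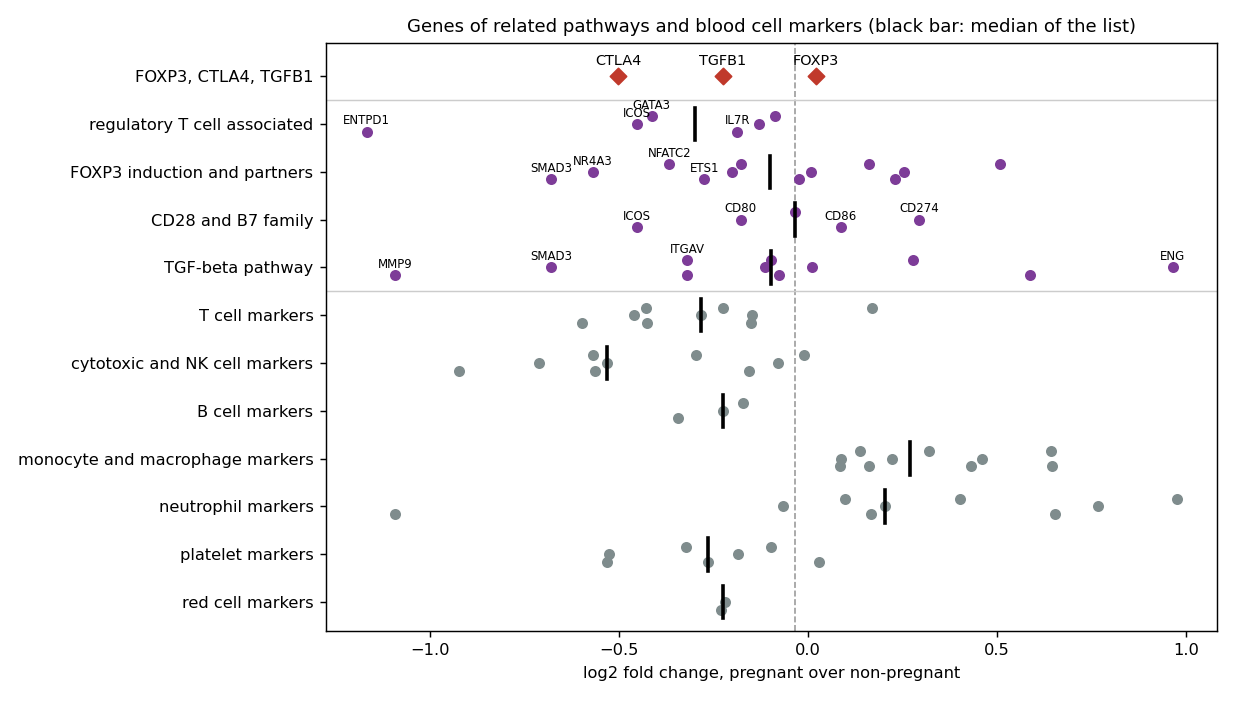
Log2 fold change (pregnant over non-pregnant) of FOXP3, CTLA4 and TGFB1 (red), of the measured genes of 4 related lists (purple) and of 7 blood cell marker lists (grey), 1 point per gene at its brightest probe, with the list median as a black bar and the median of all 1817 genes as a dashed line. CTLA4 lies at -0.50, among the lower T cell genes, and all 6 measured regulatory T cell associated genes are below 0.

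Across the 8 arrays no pair of the 3 genes showed a correlation past the test. Taking the brightest probe of each, 24 relations were computed: 3 between the genes and 21 between each gene and 7 marker means. FOXP3 and CTLA4 correlated at r = -0.140 (exact permutation p = 0.759, adjusted 0.959) and rho = 0.190 (p = 0.665, adjusted 0.844). Without pregnant replicate 2 r was 0.782 (exact permutation p = 0.0407, not adjusted), and without the 2 arrays farthest from the median CTLA4 level (pregnant 2 and non-pregnant 2) it was 0.815 (p = 0.0542). The sign of the relation thus turned when 1 array was left out. With all 8 arrays kept it also turned with normexp background correction and with the local background subtracted (values in the closing part).

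FOXP3 and TGFB1 correlated at r = -0.140 (exact permutation p = 0.707, adjusted 0.959) and rho = -0.048 (p = 0.935, adjusted 0.935). Without pregnant replicate 2 r was 0.682, and without pregnant replicate 2 and non-pregnant replicate 4 it was 0.185. CTLA4 and TGFB1 correlated at r = 0.448 (exact permutation p = 0.270, adjusted 0.811) and rho = 0.500 (p = 0.216, adjusted 0.649). Without pregnant replicate 2 r was 0.233, without those 2 arrays it was 0.061, and with the group means removed it was 0.139. The relation of CTLA4 and TGFB1 was thus weaker within the groups than over all arrays. A slide held only 4 arrays, too few for a correlation. With slide means removed the 3 values of r were -0.358, -0.286 and 0.432. On the unscaled signals, which still hold the brightness of each array, they were -0.376, -0.409 and 0.780. Scaled levels on both sides of each r, also those with marker means, have the same array percentile subtracted. How much of r comes from that was not tested.

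None of the relations with a marker mean held after adjustment over the 24. The 3 of smallest unadjusted p were FOXP3 with the red cell genes (r = 0.844, exact permutation p = 0.00799, adjusted 0.143; rho = 0.762), FOXP3 with the neutrophil markers (r = 0.873, p = 0.0119, adjusted 0.143; rho = 0.738) and CTLA4 with the monocyte and macrophage markers (r = -0.761, p = 0.0256, adjusted 0.205; rho = -0.833), with adjusted p of 0.367 for each rho. Without pregnant replicate 2 these values of r were 0.633, 0.531 and -0.841. Without the 2 arrays farthest from the median of the marker mean they were 0.488, 0.417 and -0.633. With group means removed the relation of CTLA4 with the monocyte and macrophage markers was -0.460. With the T cell markers r was -0.723 for FOXP3 (0.064 without pregnant replicate 2), 0.592 for CTLA4 (0.278) and 0.571 for TGFB1 (0.301), with adjusted p of 0.418, 0.557 and 0.597.

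**Figure D5:**
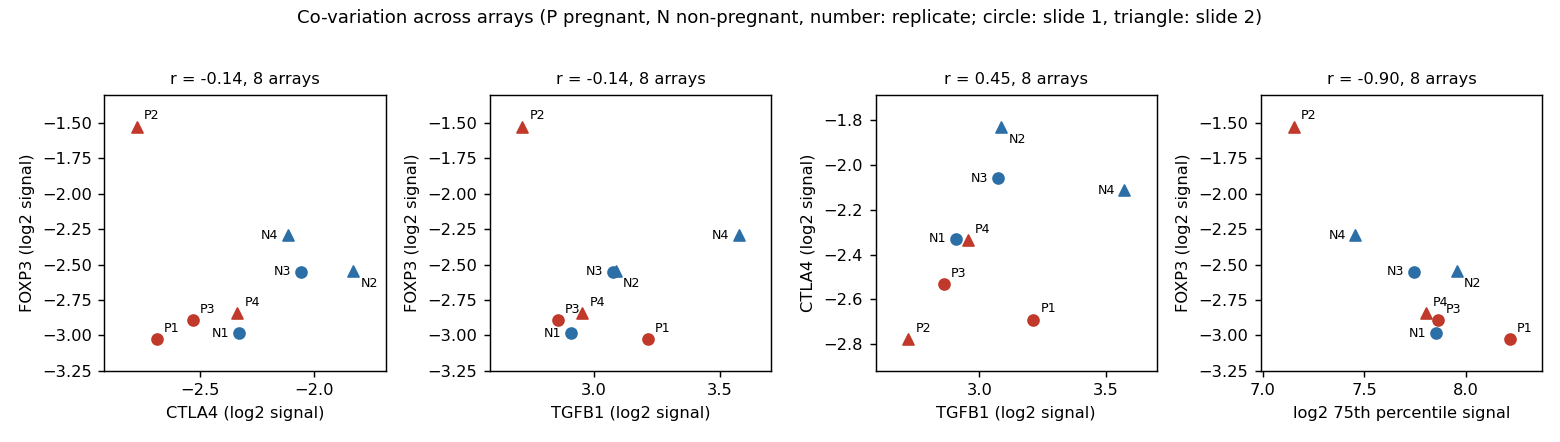
Levels (log2 signal) of the 3 genes against each other on the 8 arrays, and FOXP3 against log2 of the array's 75th percentile signal (right). Red P marks pregnant and blue N non-pregnant arrays, with the replicate number. Pregnant replicate 2 lies apart in each FOXP3 panel, and the right panel shows r = -0.898.

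The genes whose levels over the 8 arrays were most like each of the 3 were sought among 1814 other genes, at their brightest probes, by Pearson's r. With so many genes and 8 arrays, high values arise in number, and they are given as a description. For TGFB1 they were FKBP1A (0.966), SLC7A1 (0.963), ST6GALNAC4 (0.956), SLC12A4 (0.951) and BCKDHA (0.950), and 19 genes exceeded 0.9. FKBP1A encodes the small immunophilin that binds the drugs FK506 and rapamycin, and SLC7A1 a transporter of cationic amino acids. The opposite pattern was clearest for C1QTNF6 (-0.909), LIMA1 (-0.888) and the chemokine CCL19 (-0.886).

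For CTLA4 they were PAQR7 (0.930), a membrane progestin receptor, BTG2 (0.876), an antiproliferative gene, FBXO7 (0.857), LMO3 (0.852) and HOPX (0.818), and 1 gene exceeded 0.9. PAQR7 was 0.901 without pregnant replicate 2. The lowest were TGFA (-0.945), SLC23A2 (-0.910) and DCT (-0.872). For FOXP3 they were FITM1 (0.945), FKBPL (0.944), HYAL1 (0.941), NRAP (0.938) and CAMK2G (0.935), and 24 genes exceeded 0.9. Without pregnant replicate 2 these 5 values lay between 0.726 and 0.803. The lowest for FOXP3 were the enolase ENO3 (-0.961), NCOA1 (-0.925) and INSIG2 (-0.918), at -0.854, -0.708 and -0.685 without that array.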

How the data were processed

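Scanner output was deposited for each array; per the file headers it comes from release 10.7.3.1 of Feature Extraction (10.7 per the submitters' processing notes). The processed signal is a linear intensity from which background and spatial trend were removed, per the file headers; median intensities of spot and local background stand beside it. A value table on the log2 scale was deposited as well, with normalization not given in the sources used here; it has the signal's direction and equal quartiles in all columns, and served only as an alternative. The scanner's flags of each spot, other than intensities, are deposited too.

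Control spots and outlier spots were left out, and spots of a probe were averaged on the log2 scale. Dropped were 215 of 43603 probes, those with no unmarked spot on 1 or more arrays. Each array was scaled on its 75th percentile. Groups were compared with limma 3.58.1 (lmFit, eBayes) in R 4.3.3 over the 26476 probes kept, in two-sided tests whose p-values were adjusted by Benjamini-Hochberg and called under 0.05. Single values were tested by exact permutation over 70 splits, and correlations over all orders of the arrays. Of 5748 probes with a RefSeq accession, 5436 were matched to 2382 symbols through an Sscrofa11.1 table, used for names only. A gene stands for its brightest kept probe. Python 3.11.15 with pandas 2.3.3 handled the tables, and matplotlib 3.10.9 drew the plots.

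The genes, the lists and the tests were chosen with earlier results of these data known. Named genes are the 4 of smallest unadjusted p in each of 4 lists, the 5 of highest and 3 of lowest r for each gene, and others chosen after their values were seen (CD3D, SH2D1A, IL2RA, TGFBR1, SMAD4). The planned promoter motif search was not run, since no promoter sequence was used here. On data simulated for the 26476 probes, limma recovered 2.99% of 2-fold, 59.7% of 4-fold and 84.8% of 8-fold changes. The simulation drew independent normal noise for each probe, without array effects or kinship. In it 5.14% of unchanged probes had a limma unadjusted p under 0.05, beside 2.28% of probes in the data. Its rates may therefore not hold for these arrays. The share of probes well above background ranged over arrays from 61.7% to 69.2%, and 0 spots were saturated; the number of arrays limits the precision. Nothing in the labels says more of the replicates than that each is a sow, so p-values measure the spread between these samples. The main limma fit and the permutation tests treat the sows as unrelated, though by the study's design 3 pairs are half-sibs.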

Additional observations from a re-analysis of the deposited data

Results flagged for a closer look

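Of 64 groups of 4 arrays examined, 5 held an array far from the other 3, judged by Dixon's ratio of its gap to the nearest other array over the group's range, against the 95% critical value; chance gives about 5% of groups. In 3 of them the array was pregnant replicate 2. FOXP3 at probe A_72_P441214 was at -1.53 there, with the nearest other pregnant array at -2.84 (ratio 0.879). Taken relative to the T cell markers, FOXP3 was at -2.41 there and at -4.22 on the nearest other pregnant array (ratio 0.834). GATA3 was lowest on that array, at 3.17 against 3.93 (ratio 0.886). The B cell marker mean was highest on pregnant replicate 1, at 1.40 against 1.02 (ratio 0.869). ITGAV was lowest on non-pregnant replicate 2, at -1.37 against -1.25 (ratio 0.861).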

How the results depend on the processing

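No probe was called under any of the 21 alternatives, while probes at an unadjusted p under 0.05 numbered 604 with all arrays and from 336 (local background subtracted, 50 added) to 2197 (array weights, a fit that stopped before it converged). CTLA4 kept its direction under all 21. Of these, the changed probe filters, the blocks on slide or replicate number and the trended variance cannot alter its log2 fold change in this balanced design. With normexp background correction FOXP3 stood at -0.63, the TGFB1 probes at 0.48 and 0.44, ICOS at 0.19, GATA3 at 0.38, IL7R at 0.36 and ETS1 at 0.52. That correction fitted background means from -729 to -1.83 intensity units, which adds a different offset on each array. It also gave FOXP3 relative to the T cell markers -0.76, r of 0.965 (FOXP3 with CTLA4), -0.942 (FOXP3 with TGFB1), -0.937 (CTLA4 with TGFB1), -0.881, -0.815 and 0.911 (T cell markers with FOXP3, CTLA4 and TGFB1), -0.643 (FOXP3 with neutrophils) and -0.986 (CTLA4 with monocytes), and list medians of 0.16 (regulatory T cell), 0.22 (TGF-beta) and 0.35 (T cell). Within slide 1 FOXP3 stood at -0.19, the TGFB1 probes at 0.044 and 0.29, GATA3 at 0.0038, CD80 at 0.14, CD86 at -0.11, CD274 at -0.54 and FOXP3 relative to T cell markers at -0.076; within slide 2 TGFB1 relative to them stood at -0.043. With array weights FOXP3 stood at -0.26, IL7R at 0.041 and CD86 at -0.12. With local background subtracted, an alternative chosen after seeing the data, CTLA4 and TGFB1 relative to T cell markers stood at 0.046 and -0.0069, and FOXP3 with CTLA4 at r = 0.357. Unscaled, CTLA4 with monocytes had r = 0.344. The cause of these changes was not tested.

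With single arrays left out the ranges were -0.33 to 0.17 (FOXP3), -0.59 to -0.42 (CTLA4), -0.32 to -0.087 and -0.43 to -0.082 (TGFB1), -0.29 to 0.015 (CD80), -0.068 to 0.33 (CD86), -0.59 to 0.81 (CD274), -0.19 to 0.54 (FOXP3 relative to T cell markers), -0.35 to -0.10 (CTLA4 relative to them), -0.070 to 0.19 (TGFB1 relative to them), -0.21 to -0.027 (median of the FOXP3 induction list) and -0.26 to 0.15 (that of the CD28 and B7 list). For r they were -0.358 to 0.782 (FOXP3 with CTLA4), -0.584 to 0.682 (FOXP3 with TGFB1) and -0.830 to 0.064 (FOXP3 with T cell markers). With the replicate number as a block 0 probes were called and 794 had an unadjusted p under 0.05 (limma). A balanced block leaves log2 fold changes as they are, so CTLA4 stayed at -0.50 by design. Deviations of same-numbered arrays from their group means correlated at r = 0.218, 0.481, 0.434 and -0.118, those of differently numbered arrays at -0.426 to 0.398; the labels do not say whether the numbers mark the half-sib pairs. Signals near background limit the FOXP3 probes, and the CTLA4 signal was low as well (20.8 to 69.9 intensity units). Having 4 arrays a group limits all results.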
